A study of Mus musculus with 2 samples.

Results

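The Slc22 genes encode organic ion transporters, and 7 of them were followed through the cells of the newborn mouse kidney: Slc22a2, Slc22a4, Slc22a5, Slc22a6, Slc22a8, Slc22a12 and Slc22a18. They were chosen by gene symbol, and all 7 were found among the 32285 genes of the count tables. Cells from 2 kidney libraries of postnatal day 0 mice were profiled by droplet single-cell RNA sequencing, in which each unique molecular identifier (UMI) stands for 1 captured transcript. Both libraries carried the genotype Rbpj c/+ ; Foxd1cre/+, that is a conditional Rbpj allele over a wild-type one together with a Cre recombinase under Foxd1, a gene of the renal stromal progenitors. They formed 1 group with n = 2. No other genotype was analysed here, so effects of the alleles could not be told apart in any value below. The labels do not say whether a library is 1 kidney or a pool. The p-values therefore rest on these 2 libraries only. They measure how differences between classes vary from library to library, once the overall difference between the libraries is removed.

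The proximal tubule takes organic anions and cations, many of them drugs and toxins, from the blood side and secretes them into the urine. It also reclaims filtered urate and carnitine. Slc22a6 (OAT1) and Slc22a8 (OAT3) take up organic anions at the basolateral membrane in exchange for dicarboxylates, and Slc22a2 (OCT2) takes up organic cations there. Slc22a12 (URAT1) is the apical urate exchanger, Slc22a5 (OCTN2) carries carnitine with sodium, and Slc22a4 (OCTN1) carries ergothioneine. Slc22a18 is an imprinted gene expressed mainly from the maternal allele, and its substrates are poorly known.

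All 7 genes were located on the GRCm38 build. Slc22a12 (chr19:6535845-6543032, minus strand), Slc22a8 (chr19:8591254-8611835, plus strand) and Slc22a6 (chr19:8618039-8628299, plus strand) lie on chromosome 19, the last pair next to each other. Slc22a5 (chr11:53864542-53891660) and Slc22a4 (chr11:53983123-54028090) lie on the minus strand of chromosome 11, with Slc22a21 between them. Slc22a2 lies at chr17:12584132-12628488 and Slc22a18 at chr7:143473736-143499334, both on the plus strand. Slc22a12 overlaps Nrxn2 on the opposite strand. The 250 bases upstream of the RefSeq start sites are shown for 3 members, because Slc22a6 and Slc22a8 were nearly confined to the proximal lineage while Slc22a5 was found in most classes. Sequences are from RefSeq (GRCm38.p6), read 5′ to 3′ on the gene's strand. The RefSeq start of Slc22a8 lies inside the gene as GENCODE draws it, in an intron that 1 transcript retains. Capitals mark CG dinucleotides, of which the Slc22a6 sequence holds none.
Slc22a6, chr19:8617746-8617995, plus strand: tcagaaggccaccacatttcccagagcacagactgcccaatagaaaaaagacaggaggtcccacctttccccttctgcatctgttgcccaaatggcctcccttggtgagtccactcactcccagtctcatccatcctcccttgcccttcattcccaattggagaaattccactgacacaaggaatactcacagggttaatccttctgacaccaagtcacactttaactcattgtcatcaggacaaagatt
Slc22a8, chr19:8592932-8593181, plus strand: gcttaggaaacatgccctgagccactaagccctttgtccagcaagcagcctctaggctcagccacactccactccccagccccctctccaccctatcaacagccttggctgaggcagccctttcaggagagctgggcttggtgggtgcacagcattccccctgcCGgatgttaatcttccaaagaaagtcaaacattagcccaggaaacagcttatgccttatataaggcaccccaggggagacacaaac
Slc22a5, chr11:53891704-53891953, minus strand: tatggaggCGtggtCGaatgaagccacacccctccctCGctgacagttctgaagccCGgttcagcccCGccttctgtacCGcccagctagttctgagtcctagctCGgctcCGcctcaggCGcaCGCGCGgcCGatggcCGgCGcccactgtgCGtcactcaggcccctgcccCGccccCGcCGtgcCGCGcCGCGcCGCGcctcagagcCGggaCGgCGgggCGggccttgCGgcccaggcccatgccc

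The windows of the 7 members differed in CG dinucleotides, with 30 upstream of Slc22a5 and 26 upstream of Slc22a4. There were 6 each upstream of Slc22a2 and Slc22a12, 1 upstream of Slc22a8 and none upstream of Slc22a6 and Slc22a18, against a median of 6 over all windows. The GC content was 73.6% for Slc22a5 and 71.2% for Slc22a4, and between 48.4% and 55.2% for the others. CAAAGT, a half-site of the hepatocyte nuclear factor HNF4, was searched on both strands and was found in the Slc22a12 window alone, starting 63 bases before the start site. Over 32851 mouse promoter windows of the same length, 12.6% held it, so the match is a description of these letters and no evidence of binding. The motif and the marked letters were chosen after the sequences were seen.

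A barcode counted as a cell when it held 3000 UMIs and 500 genes or more, with no more than 20% of its UMIs mitochondrial. This gave 5529 cells in replicate 1 and 4206 in replicate 2, with median depths of 15016 and 20008 UMIs. Of the barcode sequences, 6 occurred in both libraries. Each cell was placed in a class by fixed marker genes, none of them an Slc22 gene, so a class name such as proximal tubule stands for proximal tubule-like cells. The 13 classes with at least 20 cells in each library held 3433 and 2617 cells, of which 283 and 185 were proximal tubule cells and 201 and 125 proximal tubule precursors. The gate itself fixes that its markers are high in the proximal tubule class; Slc34a1 and Fbp1 were among its leading genes. The precursors rest on the markers Cdh6, Osr2 and Jag1, and Grid1, Osr2 and Cdh6 led theirs. Levels below are counts per 1000000 UMIs (CPM) of the summed counts of a class in 1 library. Each UMI comes from a transcript's 3′ end, so these levels were not divided by gene length. The median mitochondrial share was higher in proximal tubule cells, 11.7% and 9.22%, than in precursors, 4.91% and 4.33%.

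The transporters of organic anions, organic cations and urate were largely proximal tubule genes at this age. Slc22a6 was the highest of the 7, with 493 and 413 CPM in proximal tubule cells. Slc22a2 followed with 183 and 187 CPM, Slc22a8 with 184 and 136 CPM, and Slc22a12 with 102 and 99.7 CPM. In both libraries the proximal tubule sum of each of these 4 genes lay far above every other class, with no overlap. Slc22a5 reached 87.0 and 79.2 CPM and Slc22a18 21.3 and 28.6 CPM, again above every other class. Slc22a4 was the lowest at 5.48 and 8.16 CPM. In each library it was higher in the loop of Henle or distal tubule class, at 7.38 and 8.53 CPM, though the 2 ranges overlapped.

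**Figure D1:**
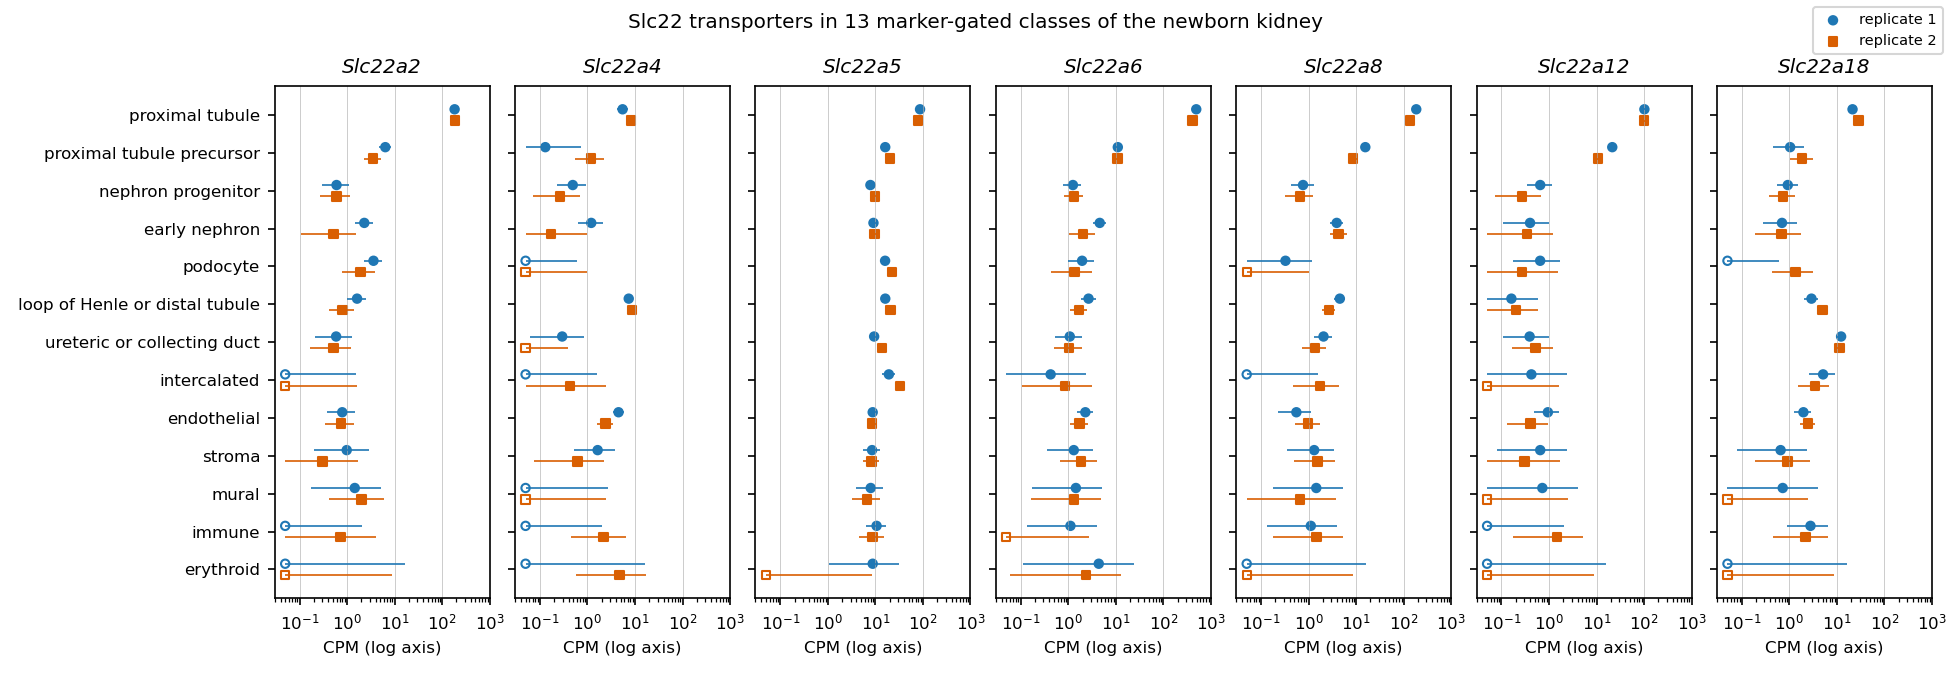
Level of the 7 Slc22 transporters in 13 cell classes (rows), as CPM of the summed counts on a log axis; circles are replicate 1 and squares replicate 2, lines are exact 95% Poisson intervals of the count, and open symbols at the left edge stand for 0 UMIs. The proximal tubule symbols of Slc22a6, at 493 and 413 CPM, lie far to the right of all other classes. Those of Slc22a4 lie to the left of the loop of Henle or distal tubule symbol of the same library.

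Each transporter was tested in proximal tubule cells against the mean of the other 12 classes, in 1 edgeR quasi-likelihood fit of all classes with the library as a block and p-values adjusted over 17427 genes. All 7 members were higher in the proximal tubule, where 32.0% of all tested genes were called higher and 16.7% lower. On the CPM scale, the proximal tubule level of Slc22a6 was 176-fold and 187-fold the mean of the other classes in the 2 libraries (edgeR log2 fold change 8.07, SE 0.10, adjusted p = 9.2e-22). Slc22a2 was 120-fold and 193-fold above that mean (log2 fold change 8.69, edgeR adjusted p = 3.1e-18). The ratio was 69.7-fold and 68.0-fold for Slc22a8 (edgeR adjusted p = 6.4e-18) and 46.1-fold and 82.0-fold for Slc22a12 (edgeR adjusted p = 1.2e-17). For these 4 genes the proximal tubule lay above the mean of the other 12 classes by well over an order of magnitude in both libraries. The gap to the precursors alone was smaller. Slc22a12, with 102 and 99.7 CPM in the proximal tubule, had 21.4 and 10.8 CPM there.

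The carnitine transporter Slc22a5 was 7.53-fold and 5.84-fold above the mean of the other classes (log2 fold change 3.05, edgeR adjusted p = 3.8e-14). Slc22a18 was 8.79-fold and 11.4-fold above it (log2 fold change 4.77, edgeR adjusted p = 2.1e-11). Slc22a4 was 4.21-fold and 4.78-fold above it (log2 fold change 3.85, edgeR adjusted p = 5.3e-06). In the fit, log levels of the other classes are averaged, among them those of erythroid cells, in which 4 members had no UMI in either library. Its fold changes are therefore not those of the mean CPM. Proximal tubule cells held 11.9% and 10.8% of the UMIs of the 13 classes but 95.9% and 95.4% of the Slc22a6 UMIs. They held 93.6% and 95.9% of the UMIs of Slc22a2, 88.9% and 87.9% of those of Slc22a8, and 85.1% and 90.0% of those of Slc22a12. For Slc22a5 the share was 51.2% and 40.1%, and for Slc22a4 26.4% and 30.1%.

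Detection in single cells is described here with every cell thinned to 3000 UMIs. Slc22a6 was detected in 64.3% of thinned proximal tubule cells in replicate 1 (exact binomial 95% interval 58.4% to 69.9%, counting error only) and 58.4% in replicate 2 (50.9% to 65.6%). Without thinning it was detected in 93.6% and 91.4%, with a median of 14 UMIs per cell in each library. Endothelial cells, taken as a type that should lack this transporter, gave thinned shares of 0.858% and 1.32%. Their median depths were 10898 and 13270 UMIs, against 37046 and 44472 UMIs in proximal tubule cells. Slc22a2 was detected in 43.8% and 37.3% of thinned proximal tubule cells, Slc22a8 in 37.8% and 30.3%, Slc22a12 in 25.1% and 22.7%, and Slc22a5 in 23.7% and 22.7%. The endothelial shares were at most 0.497% for Slc22a2, 0.331% for Slc22a8 and 0.286% for Slc22a12, and 2.15% and 2.98% for Slc22a5. Slc22a18 was seen in 5.30% and 8.65% of thinned proximal tubule cells and in 1.0% and 1.49% of endothelial cells. At 1.41% and 2.70% of thinned proximal tubule cells, with 0.429% and 0.662% in endothelial cells, Slc22a4 was near the limit of detection per cell.

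Detection of more than 1 transporter in a cell depends on depth. Without thinning, 180 of 283 cells in replicate 1 (63.6%) and 108 of 185 in replicate 2 (58.4%) held at least 1 UMI of each of Slc22a2, Slc22a6, Slc22a8 and Slc22a12. Only 3 and 4 cells held none of the 4. After thinning, Slc22a8 was found in 45.1% of the cells with Slc22a6 and 24.8% of those without it in replicate 1, and in 38.0% and 19.5% in replicate 2. Slc22a6 was found in 71.8% of the cells with Slc22a2 and 58.5% of those without it in replicate 1, and in 71.0% and 50.9% in replicate 2. The urate carrier Slc22a12 was found in 28.0% of the thinned cells with Slc22a8 and 23.3% of those without it in replicate 1, and in 26.8% and 20.9% in replicate 2. For Slc22a12 with and without Slc22a6 the shares were 30.2% and 15.8% in replicate 1 and 25% and 19.5% in replicate 2. These shares are a description, with no test.

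Proximal tubule precursors, the class that stands before the tubule cells in nephron formation, held part of the transporter set. All 7 members were higher in proximal tubule cells than in precursors by edgeR, a contrast in which 22.9% of all tested genes were called higher. Slc22a6 stood at 11.0 and 11.0 CPM in precursors, 2.24% and 2.65% of its proximal tubule level (log2 fold change 5.72, SE 0.19, edgeR adjusted p = 2.2e-13). Slc22a2 stood at 6.37 and 3.47 CPM, 3.49% and 1.86% of that level (log2 fold change 5.62, edgeR adjusted p = 3.9e-11). Slc22a8 stood higher, at 15.6 and 8.68 CPM or 8.49% and 6.37% (log2 fold change 4.09, edgeR adjusted p = 4.2e-10). The urate carrier Slc22a12 had the highest relative level of these 4 genes, at 21.4 and 10.8 CPM, which is 21.1% and 10.8% of its proximal tubule level (log2 fold change 3.06, edgeR adjusted p = 9.3e-09). These are levels of class sums. Without thinning, 24.4% and 17.6% of precursors held an Slc22a12 UMI, against 73.5% and 74.1% of proximal tubule cells. After thinning the precursor shares were 6.47% and 3.20%. The highest count in 1 precursor was 24 of 165 Slc22a12 UMIs in replicate 1 and 12 of 81 in replicate 2.

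Slc22a5 was at 16.1 and 20.6 CPM in precursors, 18.5% and 26.0% of its proximal tubule level (log2 fold change 2.56, edgeR adjusted p = 7.9e-09). Slc22a18 was at 1.04 and 1.87 CPM (log2 fold change 4.45, edgeR adjusted p = 1.1e-07). Slc22a4 had 1 and 9 UMIs in precursors (log2 fold change 3.68, edgeR adjusted p = 0.00065). After subtraction of a background profile the calls were lost for Slc22a8 (adjusted p = 0.0562), Slc22a12 (adjusted p = 0.0964) and Slc22a4 (adjusted p = 0.0987), with log2 fold changes of 4.18, 2.86 and 3.89. The order of the 7 relative levels was not tested.

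**Figure D2:**
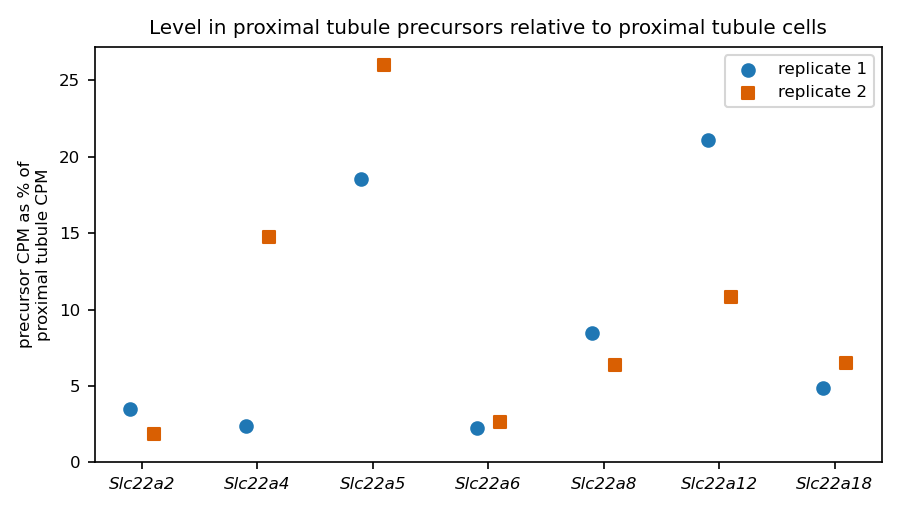
Level of each transporter in proximal tubule precursors as a percentage of its level in proximal tubule cells of the same library, with circles for replicate 1 and squares for replicate 2. Slc22a6 and Slc22a2 lie at or below 3.49% in both libraries, while Slc22a5 and Slc22a12 lie at or above 10.8%.

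Against the mean log level of the other classes, precursors were called higher for 4 members, where 24.3% of tested genes were called higher. These were Slc22a12 (log2 fold change 4.86, edgeR adjusted p = 1.0e-10), Slc22a8 (3.16, edgeR adjusted p = 1.9e-07), Slc22a6 (1.88, edgeR adjusted p = 7.1e-08) and Slc22a2 (2.60, edgeR adjusted p = 0.00015). The mean CPM of the other classes, which includes the proximal tubule, was above the precursor level for the last 3 of these. Slc22a5 (edgeR adjusted p = 0.276), Slc22a4 (adjusted p = 0.957) and Slc22a18 (adjusted p = 1) gave no call in precursors.

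As a measure that bears on free RNA from proximal tubule cells, the ratio of each member to 20 enzyme genes such as Fbp1, Keg1 and Kap was set beside its level. In precursors this ratio was 2.52 and 1.71 times the proximal tubule ratio for Slc22a12 and 1.01 and 1.01 times for Slc22a8. It was 0.27 and 0.42 times for Slc22a6 and 0.42 and 0.29 times for Slc22a2. Outside the proximal lineage, Slc22a12 lay below the proximal tubule ratio in all 20 class sums compared, with a highest value of 0.89 times. Slc22a6 exceeded it in 1 of 20, in the early nephron of replicate 1 at 1.07 times, where 1 cell held 20 of the 46 UMIs. Both genes were at or below 4.6 CPM in these classes. The part of free RNA in these levels was not tested. Barcodes of 10 to 100 UMIs, which are mostly empty droplets, held 15 and 39 Slc22a6 UMIs, or 12.4 and 70.4 CPM, above the 11.0 and 11.0 CPM of precursors. In replicate 1 these barcodes held 10.7 CPM of Slc22a5, 6.61 of Slc22a8, 5.79 of Slc22a2 and 3.31 of Slc22a18, from 13, 8, 7 and 4 UMIs. Slc22a4 and Slc22a12 had 3 UMIs each there, or 2.48 CPM. The replicate 2 levels of members other than Slc22a6 in such barcodes are not reported here.

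**Figure D3:**
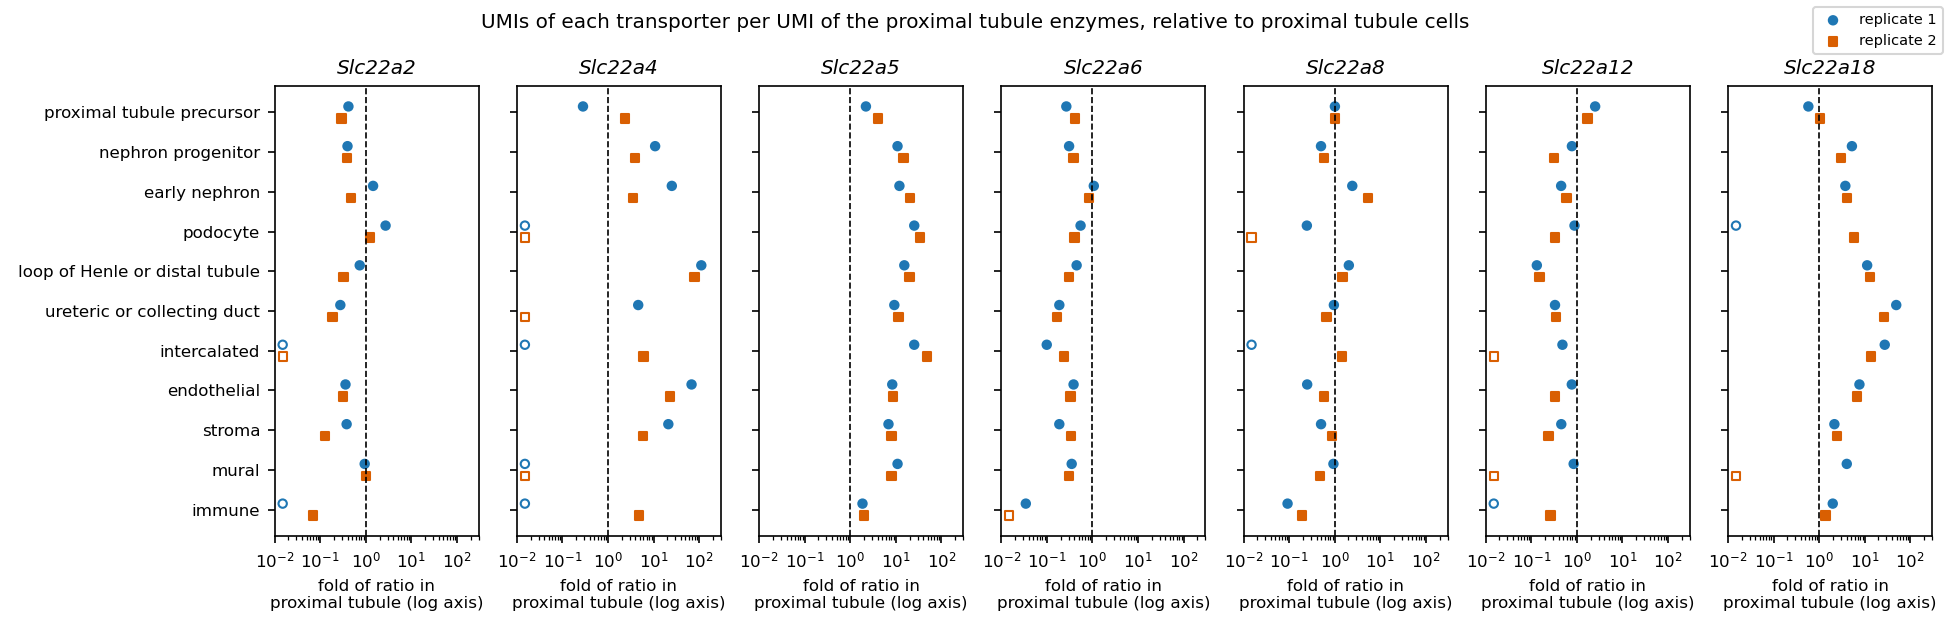
UMIs of each transporter per UMI of 20 proximal tubule enzyme genes in 11 classes, divided by the same ratio in proximal tubule cells, on a log axis; circles are replicate 1, squares replicate 2, open symbols at the left stand for 0 UMIs and the dashed line marks the proximal tubule ratio. Slc22a6 and Slc22a12 stay at or left of the line outside the precursors apart from 1.07 for Slc22a6 in the early nephron of replicate 1, while Slc22a4 reaches 111 and 79.4 in the loop of Henle or distal tubule and Slc22a18 49.2 and 26.3 in the ureteric or collecting duct.

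Within the proximal tubule class, the cells were divided into 3 ranges by the summed share of the enzyme genes, which differed 2.13-fold and 2.67-fold between the highest and the lowest range. These ranges of a score are not cell types, and their values are a description. Slc22a8 was lowest in the low range and highest in the high range, from 129 to 215 CPM in replicate 1 and from 69.2 to 190 CPM in replicate 2. Slc22a6 stood at 375, 582 and 524 CPM in the low, middle and high range of replicate 1, so the middle range was the highest there, and at 242, 482 and 539 CPM in replicate 2. Slc22a18 went from 10.2 to 34.0 CPM and from 13.1 to 42.2 CPM, or 3.33-fold and 3.22-fold, the largest of the 7 without thinning.

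Slc22a12 did not follow the enzymes and was highest in the middle range. Its level was 105, 124 and 73.5 CPM in the low, middle and high range of replicate 1. In replicate 2 it was 96.0, 103 and 100.2 CPM. The highest range differed from the lowest 1.14-fold and 1.49-fold for Slc22a2, and 1.45-fold and 1.48-fold for Slc22a5. Slc22a4 stood at 0.68-fold and 1.46-fold. The middle range was the highest for Slc22a2 in replicate 1, at 221 CPM, and for Slc22a5 in replicate 2, at 91.3 CPM. With every cell thinned to 3000 UMIs the ratios were 1.82 and 2.57 for Slc22a8, 1.14 and 2.14 for Slc22a6, and 2.02 and 2.03 for Slc22a18. They were 0.72 and 1.31 for Slc22a12, 1.26 and 1.94 for Slc22a2, and 0.94 and 1.45 for Slc22a5. Those of Slc22a4, 2.02 and 3.05, rest on 1 to 3 UMIs a range and show no direction. The thinned Slc22a18 ratios rest on 3 and 4 UMIs in the lowest and 6 and 8 UMIs in the highest range, with overlapping counting intervals. Among proximal transcription factors, the highest range held less Hnf4g (0.43-fold and 0.32-fold) and more Nr1h4 (1.41-fold and 1.70-fold) than the lowest. Hnf4a differed by 0.95-fold and 1.13-fold. The lowest range had a lower median depth, 27679 against 37356 UMIs in replicate 1 and 41856 against 48807 in replicate 2, and its part in these values was not tested beyond the thinning.

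**Figure D4:**
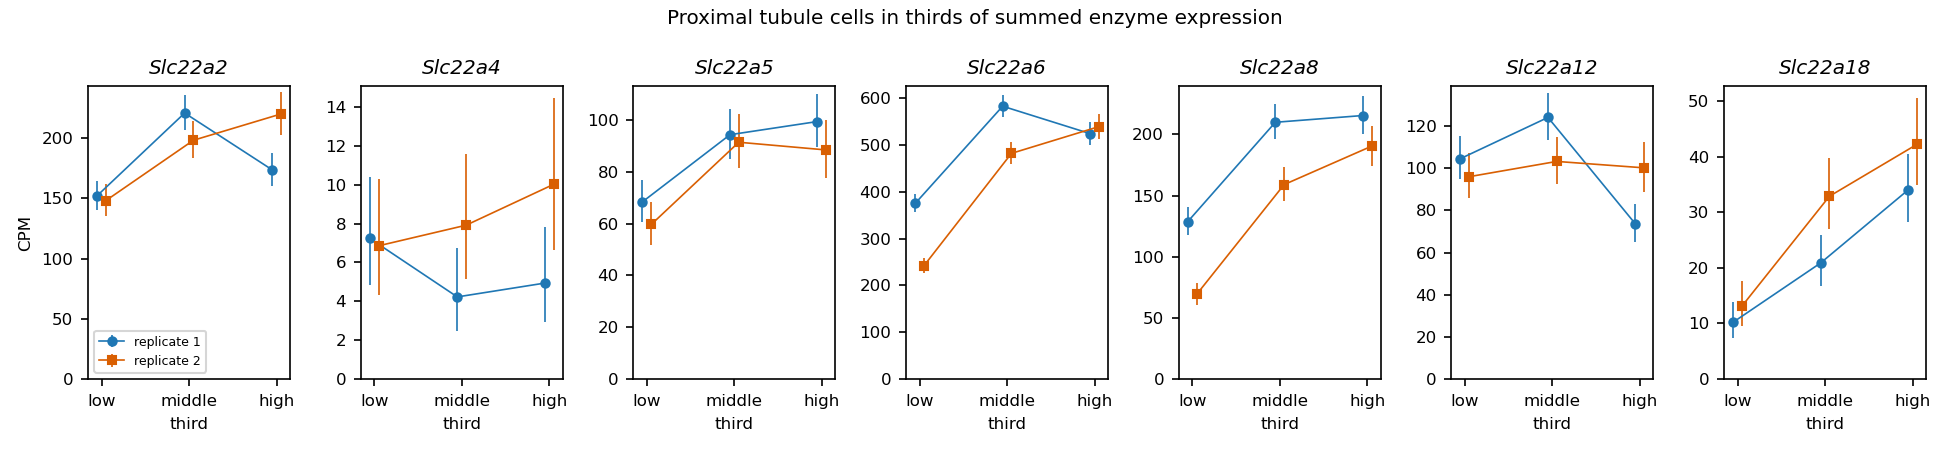
CPM of each transporter in proximal tubule cells divided into 3 ranges of summed enzyme expression (61 to 95 cells each), with circles for replicate 1, squares for replicate 2 and lines for exact 95% Poisson intervals of the count; each panel has its own axis starting at 0. Slc22a8 and Slc22a18 are lowest in the low range of both libraries, while Slc22a12 falls to 73.5 CPM in the high range of replicate 1 and stays near 100.2 CPM in replicate 2.

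Outside the proximal tubule, 84 pairs of a member and a class were tested with the same fit, and 25 were called, 13 higher and 12 lower. Over all genes 34.5% of such pairs were called, 22.7% higher and 11.8% lower. Of the 13 higher calls, 7 lay below the arithmetic mean CPM of the other classes, a mean that includes the proximal tubule. The call held under all alternatives tried for 7 of the 25 pairs, and for 14 when background subtraction was set aside. Among the 7 were Slc22a12 and Slc22a8 in precursors, given above, Slc22a4 in the loop of Henle or distal tubule and Slc22a18 in the ureteric or collecting duct class.

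Slc22a4 had 7.38 and 8.53 CPM in the loop of Henle or distal tubule class, from 91 and 128 UMIs. It was higher there than in the mean of the other classes (log2 fold change 3.90, SE 0.50, edgeR adjusted p = 4.1e-06), where 27.0% of tested genes were called higher. The class was divided by whether the summed counts of Slc12a1, Umod and Cldn16 or those of Slc12a3, Trpm6 and Pvalb were larger. Slc12a1 is the NKCC2 cotransporter of the thick ascending limb, and Slc12a3 the NCC cotransporter of the distal convoluted tubule. This division was chosen after the class levels were seen. On the Slc12a1 side Slc22a4 stood at 8.03 CPM in 260 cells and 10.3 CPM in 323 cells. On the Slc12a3 side it had no UMI in 28 cells and 1 UMI in 73 cells, 0.369 CPM, with upper 95% Poisson limits of 3.73 and 2.06 CPM. The counting intervals of the 2 sides did not overlap in either library, but they cover counting error only, and the difference was not tested. The ratio of Slc22a4 to the enzymes in this class was 111 and 79.4 times that of proximal tubule cells.

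Endothelial cells held less Slc22a4, with 4.51 and 2.38 CPM (log2 fold change 2.54, edgeR adjusted p = 0.0020, where 29.1% of genes were called higher). These UMIs came from 16 and 12 cells, and 1 cell of each library held 21 and 8 of them. With the stricter gate that call was lost (log2 fold change 1.40, edgeR adjusted p = 0.106). Podocytes and mural cells held no Slc22a4 UMI in either library. Erythroid cells had 0 and 2 UMIs, too few to place them.

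Slc22a18 had its next level after the proximal tubule in the ureteric or collecting duct class, at 12.3 and 11.4 CPM from 125 and 109 UMIs (log2 fold change 3.27, SE 0.34, edgeR adjusted p = 3.0e-07, where 23.3% of genes were called higher). The class was divided by the summed counts of Ret and Wnt11 against those of Aqp2, Aqp3 and Fxyd4, also after the class levels were seen. Nearly all its cells were on the collecting duct side, 194 and 192, with 12.9 and 11.6 CPM. The 10 and 4 cells on the ureteric tip side gave 5 and 0 UMIs. The ratio of Slc22a18 to the enzymes was 49.2 and 26.3 times that of proximal tubule cells. After thinning, 4.41% and 5.10% of these cells held a UMI, from 9 and 10 cells, against 5.30% and 8.65% of proximal tubule cells. Without thinning the shares were 30.9% and 27.6% against 44.9% and 61.1%. Intercalated cells followed with 5.13 and 3.47 CPM, and the loop of Henle or distal tubule with 2.92 and 5.0 CPM. For the loop the log2 fold change was 1.70 (edgeR adjusted p = 0.0090), which was lost at a mitochondrial limit of 10% (adjusted p = 0.0535) and after background subtraction (adjusted p = 0.113).

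Slc22a5 was the most widely detected member, between 6.70 and 33.4 CPM in every class outside the proximal tubule except erythroid cells. In replicate 1, barcodes of 10 to 100 UMIs held 10.7 CPM of Slc22a5 (95% Poisson interval 5.72 to 18.4), inside that range. Their replicate 2 level is not reported here. The part of free RNA in these levels was not tested. Intercalated cells, the acid-base cells of the collecting duct, were second with 19.2 and 33.4 CPM (log2 fold change 0.95, edgeR adjusted p = 0.00085, where 21.8% of genes were called higher). That call was lost at a mitochondrial limit of 10% (log2 fold change 0.43, adjusted p = 0.135), and intercalated cells overlapped podocytes at 16.01 and 22.3 CPM. It was called lower in nephron progenitors, early nephron, endothelial cells, stroma and mural cells, where 15.2%, 14.7%, 12.4%, 13.2% and 8.65% of genes were called lower. The log2 fold changes ran from -0.74 in the early nephron to -1.05 in mural cells, against a mean log level that includes the proximal tubule. Over class sums outside the proximal lineage the median of Slc22a5 was 9.26 CPM. Nephron progenitors, at 7.86 and 9.83 CPM, and the early nephron, at 9.11 and 9.61 CPM, lay on both sides of that median. Endothelial cells, stroma and mural cells lay below that median in both libraries. Background subtraction ended the calls in nephron progenitors, early nephron and stroma (adjusted p of 0.0994, 0.348 and 0.250), and the stricter gate that in mural cells (adjusted p = 0.118). In the loop of Henle or distal tubule it was called higher by 0.47 (edgeR adjusted p = 0.028), which was lost without the library block (adjusted p = 0.0657).

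Low levels of Slc22a8 outside the proximal lineage were 3.90 and 4.29 CPM in the early nephron, from 39 and 25 UMIs, and 4.54 and 2.67 CPM in the loop of Henle or distal tubule. Relative to the enzymes these were 2.43 and 5.37 times and 2.05 and 1.49 times the proximal tubule ratio. The edgeR log2 fold changes were 1.46 (adjusted p = 0.031) and 1.44 (adjusted p = 0.024), and 28.0% and 27.0% of genes were called higher in these classes. The early nephron call was lost after doublet removal (adjusted p = 0.112) and with the stricter gate (adjusted p = 0.682), and the loop call after background subtraction (adjusted p = 0.0569). Slc22a2 in podocytes, at 3.59 and 1.90 CPM, was called higher on the log scale (log2 fold change 1.85, edgeR adjusted p = 0.023, with 24.4% of genes called), but the call was lost with at least 1000 UMIs per barcode (adjusted p = 0.0792). Slc22a6 was called lower in 7 of the 12 classes, with a background of 11.8%, among them intercalated cells at 0.427 and 0.867 CPM and immune cells with 2 and 0 UMIs. The mean log level compared with includes the proximal tubule and the precursors. Over class sums outside the proximal lineage the median of Slc22a6 was 1.40 CPM. Endothelial cells, at 2.29 and 1.72 CPM, lay above that median, and podocytes and stroma lay on both sides of it. The other classes called lower lay below it in both libraries. All 7 lower calls of Slc22a6 were lost after background subtraction. The calls in podocytes, stroma, endothelial and intercalated cells were also lost in at least 1 other setting. In endothelial cells this was without the library block (edgeR adjusted p = 0.0699), and in intercalated cells at a mitochondrial limit of 10% (edgeR adjusted p = 0.0573). The log2 fold changes in nephron progenitors, the ureteric or collecting duct class, intercalated cells and immune cells stayed at -1.20 or below in every setting.

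The members differed in how alike their profiles were over the 13 class means of log2(CPM + 1), given as a description. Pearson's r was between 0.92 and 0.95 for every pair among Slc22a2, Slc22a6, Slc22a8 and Slc22a12. Slc22a18 had r between 0.40 and 0.76 with the other members, and Slc22a4 between 0.33 and 0.54. All genes share the same cells, libraries and depth in these points. Of 16663 genes compared, the profile most like that of Slc22a12 was Slc22a27 (r = 0.996), an organic anion transporter of the same family, followed by Slc5a8 and Gm16311. For Slc22a6 these were Nr1i2, which encodes the xenobiotic receptor PXR, Slc22a13 and 5730437C11Rik (r from 0.98). For Slc22a2 they were Slc22a29, Slc6a20b and Hgd (r from 0.97). For Slc22a8 they were Gm12999, AI314278 and Gm29337 (r from 0.97). For Slc22a5 they were the metabolic enzyme genes Gpd1, Cpt2 and Aldh6a1 (r from 0.94). For Slc22a18 they were Strip2, the thiamine transporter gene Slc19a3 and Abca3 (r from 0.92). Slc22a4 had the weakest likeness, with the claudin gene Cldn10 (r = 0.80), Trhr and 2410080I02Rik.

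Most other Slc22 genes with enough counts to test were likewise proximal tubule genes. Of 18, 17 were tested and 13 were higher in the proximal tubule against the other classes, none lower. Over all tested genes 32.0% were called higher and 16.7% lower. The median log2 ratio of CPM + 1 was 3.01 for the family genes against -0.37 over all tested genes. Slc22a19, an organic anion transporter, had 312 and 258 CPM. Slc22a27 reached 139 and 73.4 CPM, Slc22a28 32.6 and 55.1 CPM and Slc22a13 74.8 and 69.9 CPM. Slc22a14 overlaps Slc22a13 on the same strand, so its 38.8 and 44.4 CPM are uncertain. Slc22a21, between Slc22a5 and Slc22a4, had only 6.43 and 13.5 CPM. The 4 tested genes without a call were Slc22a3, Slc22a15, Slc22a17 and Slc22a20, and Slc22a16 did not pass the count filter. Slc22a7 and Slc22a26 were called at only 4.37 and 8.69 CPM and 3.34 and 3.82 CPM.

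The partner transporters that supply or complete organic ion secretion were called higher for 16 of 20 tested genes and lower for 2 (median log2 ratio 2.83), beside 32.0% higher and 16.7% lower over all tested genes. Slc17a1 and Slc17a3, apical anion transporters, had 273 and 276 CPM and 163 and 112 CPM in the proximal tubule against means of 1.92 and 1.08 CPM in the other classes. The sulfate transporter Slc13a1 had 232 and 73.4 CPM, and Slco1a6 355 and 285 CPM. For 3 of the 16, Abcb1a, Slco4c1 and Slc2a9, the mean CPM of the other classes was the higher one, so their direction depends on the scale. These 3 are named because of that difference.

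Genes of carnitine use were called higher for 12 of 13, none lower (median log2 ratio 1.28), beside the same 32.0% over all tested genes. Acadm, a mitochondrial fatty acid dehydrogenase, had 697 and 898 CPM against a mean of 116 CPM, Acadl 454 and 510 CPM against 117 CPM, and Cpt2, which releases fatty acids from carnitine, 139 and 153 CPM against 23.1 CPM. Bbox1, the last enzyme of carnitine synthesis, was called at only 1.20 and 3.18 CPM. Of the urate and purine genes, 4 were tested and none was called by edgeR (median log2 ratio -2.01), with adjusted p from 0.103 for Xdh, which makes urate. In proximal tubule cells Xdh stood at 1.54 and 0.848 CPM.

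Proximal transcription factors were called higher for 9 of 10 tested genes (median log2 ratio 2.56), where the share over all tested genes was 32.0%. Hnf4a had 289 and 276 CPM in proximal tubule cells and a mean of 95.2 CPM in precursors. Hnf4g had 144 and 134 CPM in proximal tubule cells and 90.4 CPM in precursors. Nr1h4, the bile acid receptor FXR, had 79.0 and 82.6 CPM in proximal tubule cells and 12.7 CPM in precursors, and Ppara 64.3 and 80.2 CPM and 9.34 CPM. Maf, Esrrg and Vdr were also called higher, and Cebpa gave no call at 0.600 and 1.17 CPM. In precursors Slc22a6 and Slc22a2 stood at most at 3.49% of their proximal tubule level. Any link between these factors and the transporters was not tested, and class sums do not show which cells held both.

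Slc22a18 and Slc22a2 lie in or beside imprinted domains, and of their imprinted neighbours 3 of 11 were called higher in the proximal tubule and 4 lower (median log2 ratio -0.70), beside 32.0% and 16.7% over all tested genes. Phlda2, maternally expressed and beside Slc22a18, had 32.1 and 48.3 CPM against a mean of 0.827 CPM in the other classes (log2 fold change 7.07). Cdkn1c, a maternally expressed inhibitor of the cell cycle in the same domain, was called lower at 33.4 and 45.4 CPM against 967 CPM (log2 fold change -1.63), as was Cd81 at 101 and 90.8 CPM against 314 CPM. Igf2r, near Slc22a2, was called higher at 99.7 and 89.0 CPM against 64.7 CPM. The call for H19 had the opposite sign to its mean CPM. Of the enzyme genes, 17 of 18 tested were higher (median log2 ratio 5.15), with Fbp1 at 699 and 878 CPM, Keg1 at 567 and 385 CPM and Kap, a kidney androgen-regulated gene, at 235 and 264 CPM.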

How the data were processed

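Kidney cells of 2 libraries were analysed from deposited raw UMI counts per gene and barcode. Per the submitters' processing notes, Cell Ranger 6.0.1 and mm10 were used; the matrix headers name Cell Ranger 4, and the matrices hold all barcodes (200331687 and 173166168 UMIs). Barcodes were filtered as stated, and each cell took the class with the highest marker score: its share of UMIs on the markers, divided by the 99th percentile over all cells. A class needed at least 3 detected markers, a score of 0.2 and a second-best score under 0.5 of the best; 1486 and 1155 cells scored low and 594 and 425 mixed, and these were left out. The thresholds were set from marker values. No doublet caller was used. Counts were summed per class and library (26 sums). edgeR 4.0.16 (TMM, filterByExpr, glmQLFTest, two-sided, Benjamini-Hochberg over 17427 genes, threshold 0.05, 12 residual degrees of freedom) was run in R 4.3.3; gate markers were not tested. The SE is the log2 fold change divided by the root of F. Intervals are 95% and cover counting error only.

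The members and gene lists were chosen with earlier results of these data known. All 7 members, the tested family genes and transcription factors, and up to 4 called genes of largest fold change per further list were named, with the 3 genes most like each member. Classes of 1 library share their source, so the library was a block. DESeq2 1.42.0, scanpy 1.11.5 (Scrublet, Leiden) and further alternatives are given at the end. The fit was tested on simulated data. Gene coordinates are from GENCODE M21, and all 7 members matched a RefSeq promoter. A few genes of the lists are counted but not reported by name here. Replicate numbers follow the order of deposit and are names only.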

Additional observations from a re-analysis of the deposited data

Results flagged for a closer look

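Cells that no comparison used also held transcripts of all 7 members, above the limit that a count of 0 allows. In the cells of low marker score the mean over 2 libraries was 9.12 CPM for Slc22a5, 2.37 for Slc22a6, 2.27 for Slc22a8, 1.32 for Slc22a18, 1.24 for Slc22a2, 1.18 for Slc22a12 and 0.696 for Slc22a4. In the cells of mixed marker score it was 19.4 CPM for Slc22a5, 17.8 for Slc22a6, 16.9 for Slc22a8, 12.7 for Slc22a12, 8.37 for Slc22a2, 2.99 for Slc22a18 and 1.78 for Slc22a4. Among the mixed cells, 88 in replicate 1 and 56 in replicate 2 scored for both proximal tubule and precursor. In these, Slc22a8 stood at 90.7 and 53.6 CPM, Slc22a6 at 70.6 and 58.8 CPM, Slc22a12 at 55.9 and 64.4 CPM, Slc22a5 at 44.0 and 52.5 CPM and Slc22a2 at 22.5 and 39.1 CPM, each between the precursor and the proximal tubule level of its library. Doublets and cells between the 2 states were not separated here.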

How the results depend on the processing

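All 7 members were higher in the proximal tubule than in the mean of the other classes under every alternative that gave a test. These were DESeq2-type size factors, the DESeq2 Wald test, no filter on low counts, no library block and at least 1000 or 6000 UMIs. The rest were at most 10% mitochondrial UMIs, Scrublet doublets removed, a stricter gate, Leiden clusters, background subtraction and leaving out the erythroid class. Leaving out that class was chosen after seeing the data. Against precursors all 7 stayed higher in these settings except background subtraction, with 4. Without the replicate block these counts were 7 and 7. Outside the proximal tubule, 25 of the 84 tested pairs were called; the count was 23 without the block, 40 with the DESeq2 Wald test and 11 after background subtraction, and these are counts, not calls kept; the cause was not tested, but that subtraction took up to 50% of a class's UMIs in replicate 1 and raised the common dispersion from 0.0172 to 0.317. Slc22a6 changed sign in podocytes with Leiden clusters (log2 fold change 0.12) and in stroma after background subtraction (0.52). Of 457 tested alternatives of single values, 412 kept direction and call. Leiden clusters gave no precursor class. Leaving out a library left no residual degrees of freedom, so no count of calls; for Slc22a2 in the proximal tubule the log2 fold change was then 8.31 to 8.45. Below about 3 UMIs per class sum, levels could not be told from 0.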
